A study of Mus musculus with 24 samples.

Results

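Glucocorticoid hormone, which in mice is corticosterone, enters cells and binds the glucocorticoid receptor, a transcription factor that then moves to the nucleus and binds DNA as a dimer. Corticosterone in blood follows a daily rhythm that is high around the start of the dark phase in mice and also rises with exercise and handling. In fat the hormone affects lipid storage, insulin response and inflammation, and the enzyme 11beta-hydroxysteroid dehydrogenase type 1 regenerates active hormone inside the adipocyte. The 10 genes described here are 8 genes widely known to be induced by glucocorticoids (Tsc22d3, Fkbp5, Zbtb16, Sgk1, Ddit4, Fam107a, Mt1 and Mt2), the receptor gene Nr3c1 and the enzyme gene Hsd11b1. They were chosen by symbol, and all 10 were found among the 16233 genes of the deposited table.

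The tissue was inguinal white fat, which lies under the skin of the groin, from male C57BL6 mice aged 10 to 11 weeks by the design text, and its RNA was sequenced after removal of ribosomal RNA. There were 4 groups of 6 libraries. ZT15_RUN mice had run for 1 hour and ZT15_SED mice had spent a sham hour on an artificial treadmill, and both were sampled at ZT15, early in the active (dark) phase. ZT3_RUN and ZT3_SED mice were the exercised and sham mice sampled at ZT3, early in the rest (light) phase. ZT time starts when the lights go on. The sham mice were thus handled and not left undisturbed. The labels give no hour between the bout and sampling for these libraries, and no hormone level was used here. The labels do not tie each library to a mouse of its own, so a p-value here speaks of the spread over libraries, which may be technical in part.

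Depth over the table's genes was 18.5 to 34.7 M reads a library (M, mega). Values are the deposited normalized signal, which is reads per M (mega) reads on a TMM-scaled library size, not corrected for gene length, so levels are compared within a gene and not between genes. The defining adipocyte markers were abundant in every library: the 8 markers summed to between 8707 and 23850 of signal. The B cell gene Cd79a was at 14.1 in ZT15_SED_3, 54.6 in ZT15_SED_5 and 99.2 in ZT3_RUN_4, and did not exceed 1.33 elsewhere. The muscle myosin gene Myh4 ran between 0.631 and 22113 over the 24 libraries. Of 16 exact permutation tests of 8 marker lists between RUN and SED at each time, none passed after adjustment, and a raw exact p under 0.05 was reached in 2. At ZT15 the mean z score of lymphocyte markers was -0.38 in RUN and 0.55 in SED (exact p = 0.0411, adjusted 0.329), and that of Schwann cell markers was 0.68 in RUN and -0.27 in SED (exact p = 0.0346, adjusted 0.329). In whole tissue, fewer cells of a type and less RNA per cell cannot be told apart.

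A pair of libraries stood apart for these genes, ZT3_RUN_1 and ZT3_SED_1, whose titles carry the neighbouring numbers 11 and 10. Tsc22d3 was 127 in ZT3_RUN_1, where the other 5 ZT3_RUN libraries held 299.8 to 395, and 390 in ZT3_SED_1, where the other 5 ZT3_SED libraries held 129 to 189. For 7 of the 10 genes (Tsc22d3, Fkbp5, Sgk1, Ddit4, Fam107a, Mt1 and Mt2) ZT3_RUN_1 was below all 5 others of its group and ZT3_SED_1 above all 5 others of its group. Over all 16233 genes 3.41% had that pattern, and 2.27% had the opposite one. Among 22 other glucocorticoid-responsive genes 9 had it, among them the clock gene Per1, at 43.8 in ZT3_RUN_1 and 163 in ZT3_SED_1. Zbtb16 followed it in ZT3_SED_1 only, at 345 where the other 5 sham libraries held 117 to 253. In ZT3_RUN_1 Zbtb16 was 182, within the range of its group. Hsd11b1 did not follow it in either library, and Nr3c1 ran the other way in ZT3_SED_1, at 286 where the other 5 sham libraries held 336 to 369. Adipocyte markers summed to 15943 in ZT3_RUN_1 and 14799 in ZT3_SED_1. Cd79a was 0.786 in ZT3_RUN_1 and 0.611 in ZT3_SED_1, and the muscle marker sum of 18164 in ZT3_SED_1 was the highest of its group. Both libraries keep their labels here, the reason was not tested, and results at ZT3 are given with and without them. That alternative was chosen on these genes' own values, so it supports nothing by itself.

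The promoter windows below are shown because glucocorticoid receptor elements or metal response elements are known to act on such genes, and because Mt1 and Mt2 varied together within groups. Whether the elements that act lie inside these windows was not tested. Windows of 250 bases before each annotated start were read from RefSeq (GRCm38.p6) for 8 of the 10 genes, with 17 windows in all. The full receptor motif searched was GNACA followed after 3 bases by TGTNC, which reads the same on both strands. Its single-arm core AGAACA, which can lie inside the full motif, was searched on both strands. The metal response core, bound by the zinc-sensing factor MTF1, was searched as TGCACNC and TGCGCNC on both strands. The full receptor motif stands in 0.387% of the 32851 promoter windows of the table, a receptor core in 16.1% and a metal core in 21.4%. Among the 17 windows 6 held a receptor core (of Tsc22d3, Sgk1 and Fam107a) and 6 a metal core (of Ddit4, Fam107a, Mt1, Mt2 and Hsd11b1). The full motif was found in 4 of the 17 windows, of Sgk1, of Fam107a (in a pair of windows that overlap almost wholly) and of Mt1. The fifth Sgk1 window (chr10:21993640-21993889, plus strand) carries 1 full motif, which a receptor core overlaps on each side, and, apart from it, a receptor core, in capitals:
Sgk1 promoter 5: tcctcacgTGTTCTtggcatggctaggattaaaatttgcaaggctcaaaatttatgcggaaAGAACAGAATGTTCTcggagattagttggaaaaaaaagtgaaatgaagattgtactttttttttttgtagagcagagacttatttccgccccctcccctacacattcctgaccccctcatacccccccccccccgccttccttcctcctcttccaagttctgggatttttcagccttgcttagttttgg
The second Fam107a window (chr14:8309780-8310029, minus strand) carries a receptor core, then a full motif that a receptor core overlaps, and last a metal core, in capitals:
Fam107a promoter 2: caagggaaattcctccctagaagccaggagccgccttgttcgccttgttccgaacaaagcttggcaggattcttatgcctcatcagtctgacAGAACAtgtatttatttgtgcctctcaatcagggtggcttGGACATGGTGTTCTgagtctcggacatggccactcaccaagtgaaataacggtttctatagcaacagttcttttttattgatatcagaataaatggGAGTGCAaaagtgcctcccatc
The Mt1 window (chr8:94178839-94179088, plus strand) carries a full receptor motif, the first run of capitals, and 1 metal core, the last:
Mt1 promoter: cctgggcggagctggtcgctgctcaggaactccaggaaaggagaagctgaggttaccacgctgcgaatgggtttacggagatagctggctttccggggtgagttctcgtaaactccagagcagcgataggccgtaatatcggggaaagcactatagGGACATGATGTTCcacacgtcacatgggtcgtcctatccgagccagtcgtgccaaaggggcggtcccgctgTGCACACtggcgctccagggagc
The Mt2 window (chr8:94172368-94172617, plus strand) carries 3 metal cores, in capitals, and neither the receptor motif nor its core:
Mt2 promoter: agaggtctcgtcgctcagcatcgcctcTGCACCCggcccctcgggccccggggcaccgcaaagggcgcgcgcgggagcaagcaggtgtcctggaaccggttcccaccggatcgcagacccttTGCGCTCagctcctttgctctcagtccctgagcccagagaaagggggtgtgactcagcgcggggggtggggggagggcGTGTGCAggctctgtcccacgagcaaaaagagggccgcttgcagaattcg
A match is a run of letters and says nothing of binding in these mice.

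Tsc22d3 (ENSMUSG00000031431) encodes GILZ, an anti-inflammatory leucine zipper protein that is among the most direct glucocorticoid targets. Its lowest, median and highest signals were 509.6, 544 and 643 in ZT15_RUN, 318, 424 and 474 in ZT15_SED, 127, 342 and 395 in ZT3_RUN, and 129, 172 and 390 in ZT3_SED. Every ZT15_RUN library was above every ZT15_SED library and every ZT3_RUN library. The order of the group means was ZT15_RUN (562 ± 54.8), ZT15_SED (405 ± 69.4), ZT3_RUN (315 ± 98.9) and ZT3_SED (198 ± 97.4; SD, n = 6 each), and the last 3 groups overlapped with their neighbours.

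Fkbp5 (ENSMUSG00000024222) encodes FKBP51, a cochaperone that lowers the hormone affinity of the receptor and so forms a feedback loop. Its lowest, median and highest signals were 206, 258 and 357 in ZT15_RUN, 153, 189.6 and 246 in ZT15_SED, 55.7, 140.5 and 238 in ZT3_RUN, and 56.3, 63.2 and 202 in ZT3_SED. The groups came in the same order of means as for Tsc22d3 and each overlapped with its neighbour. Zbtb16 (ENSMUSG00000066687) encodes the transcriptional repressor PLZF. It held 340.3, 407 and 554 in ZT15_RUN, 201, 271 and 403 in ZT15_SED, 129.7, 184 and 354 in ZT3_RUN, and 117, 209.6 and 345 in ZT3_SED (lowest, median, highest), so that ZT15_RUN had the highest mean and median and all groups overlapped, the lowest ZT15_RUN library being below the highest library of each other group.

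Sgk1 (ENSMUSG00000019970) encodes a kinase of the AKT family that acts on ion channels and on insulin signalling. Its lowest, median and highest signals were 85.9, 154 and 197 in ZT15_RUN, 61.4, 79.2 and 118 in ZT15_SED, 53.2, 103 and 135 in ZT3_RUN, and 59.4, 81.9 and 126 in ZT3_SED. The sham groups at both times lay over nearly the same range. Ddit4 (ENSMUSG00000020108) encodes REDD1, an inhibitor of the growth kinase complex mTORC1 that also responds to low oxygen and stress. It held 76.6, 98.7 and 139.9 in ZT15_RUN, 19.8, 36.1 and 86.8 in ZT15_SED, 18.2, 71.8 and 113 in ZT3_RUN, and 9.70, 22.5 and 71.6 in ZT3_SED. Exercised means were above sham means at both times, and both exercised groups overlapped with their sham groups. Fam107a (ENSMUSG00000021750) encodes an actin-associated protein, and was low throughout, with group means between 15.6 ± 6.98 in ZT15_RUN and 6.18 ± 3.72 in ZT3_SED (SD, n = 6 each). All its groups overlapped.

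Mt1 (ENSMUSG00000031765) and Mt2 (ENSMUSG00000031762) encode metallothioneins, small proteins that bind zinc and copper and are induced by metals as well as by glucocorticoids. Mt1 held 96.4, 135 and 358 in ZT15_RUN, 37.0, 65.1 and 90.3 in ZT15_SED, 47.0, 106 and 137 in ZT3_RUN, and 47.2, 61.9 and 142 in ZT3_SED (lowest, median, highest). Mt2 held 15.4, 24.2 and 125 in ZT15_RUN, 3.89, 8.68 and 14.5 in ZT15_SED, 5.38, 17.8 and 28.8 in ZT3_RUN, and 5.44, 8.13 and 32.6 in ZT3_SED. For both genes every ZT15_RUN library was above every ZT15_SED library, and 1 library, ZT15_RUN_5, was far above the rest. Metallothionein genes are similar in sequence, and how reads shared between them were counted is not given in the sources used here.

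Nr3c1 (ENSMUSG00000024431) encodes the glucocorticoid receptor itself. Its lowest, median and highest signals were 309, 328 and 395 in ZT15_RUN, 295, 378 and 398 in ZT15_SED, 264, 317 and 334 in ZT3_RUN, and 286, 351 and 369 in ZT3_SED. The group means lay within 304 to 364, and all groups overlapped. Hsd11b1 (ENSMUSG00000016194) encodes the enzyme that regenerates active hormone. It held 227, 317 and 419 in ZT15_RUN, 222, 298 and 339 in ZT15_SED, 157, 331 and 406 in ZT3_RUN, and 222, 281 and 349 in ZT3_SED, with group means of 283 to 320.3. Its lowest value, 157, was in ZT3_RUN_4, which was also the library with the highest Cd79a; the part of other cell types in that value was not tested.

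**Figure D1:**
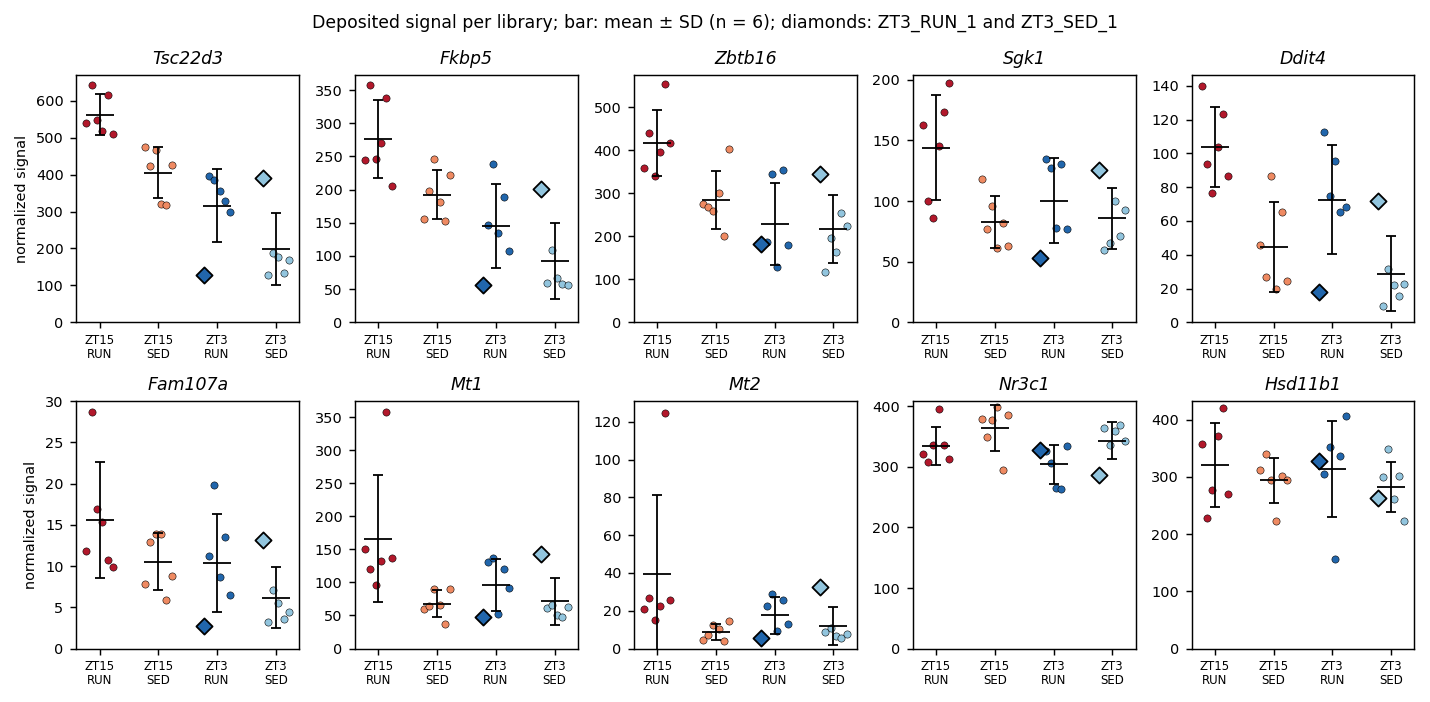
Normalized signal (y axis, linear from 0) of each of the 10 genes in each library, by group (x axis); points are libraries and bars are the mean ± SD of 6, where the lower arm of the Mt2 bar in ZT15_RUN ends below 0. Diamonds mark ZT3_RUN_1 and ZT3_SED_1: in the Tsc22d3 panel they sit at 127 and 390, each outside the other 5 of its group.

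The first comparison, between the exercised and sham mice at ZT15, asks how an hour of exercise early in the active phase is followed in these genes. All 8 induced genes had a fitted difference above 0, with a median of 0.67 on the log2(signal + 1) scale, where 50.7% of all genes were above 0 and their median was 0.00. By limma with Benjamini-Hochberg adjustment over all genes, 0 of the 10 passed 0.05, where 0.641% of all genes did, and 5 of the 10 had an unadjusted p under 0.05, as did 12.7% of all genes. EdgeR on the recovered reads also called 0. Mt2 was 4.47-fold and Mt1 2.45-fold higher as a ratio of group means, with fitted differences of 1.76 ± 0.48 and 1.19 ± 0.32 (SE; adjusted p = 0.0874 for both). Without ZT15_RUN_5 the fitted differences of Mt2 and Mt1 were 1.36 and 0.95 (adjusted p = 0.234 and 0.252), and without ZT15_RUN_3 both passed (adjusted p = 0.0480 and 0.0472). Ddit4 differed by 1.37 ± 0.43 (adjusted p = 0.143) and Sgk1 by 0.77 ± 0.25 (adjusted p = 0.155), each with 6 of 6 exercised libraries above the sham mean. Lymphocyte markers had the lower mean z score in ZT15_RUN. Without the 3 libraries high in Cd79a the fitted differences were 1.84 for Ddit4 (adjusted p = 0.0773), 1.70 for Mt2 (0.175), 1.11 for Mt1 (0.161) and 0.84 for Sgk1 (0.211). DESeq2 on the same reads called 3 genes, namely Mt2 (adjusted p = 0.00389), Mt1 (0.00908) and Sgk1 (0.0437), where it called 3.33% of all genes.

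The separation of the groups gives another view of the same libraries. In 3 of the 10 genes (Tsc22d3, Mt1 and Mt2) the exercised and sham libraries at ZT15 did not overlap, where 1.75% of all genes did not overlap in either direction. Tsc22d3 nonetheless had a fitted difference of 0.49 ± 0.25 (adjusted p = 0.412), with an error taken over all 4 groups. The within-group SD of Tsc22d3 on the log2 scale was 0.45 with all libraries and 0.21 without ZT3_RUN_1 and ZT3_SED_1. Without those 2 libraries, which are not in this comparison but enter its error, 4 genes passed at ZT15, namely Tsc22d3 (adjusted p = 0.0459), Ddit4 (0.0316), Mt2 (0.0327) and Mt1 (0.0346), where 1.23% of all genes did. Those 2 libraries were chosen on the 10 genes' own values, so this count supports nothing by itself. Zbtb16, Fkbp5 and Fam107a had fitted differences of 0.57 ± 0.24, 0.52 ± 0.30 and 0.49 ± 0.35, and Nr3c1 and Hsd11b1 of -0.12 ± 0.09 and 0.10 ± 0.18 (limma adjusted p of 0.329 to 0.867 over these 5).

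At ZT3 the exercised and sham mice were compared in the early rest phase. With all libraries 0 of the 10 genes passed, as did 0% of all genes, and 3 of the 10 had an unadjusted p under 0.05, as did 2.27% of all genes. EdgeR and DESeq2 called 0 as well. All 8 induced genes were again above 0, with a median difference of 0.59, where 51.8% of all genes were above 0. Ddit4 differed by 1.39 ± 0.43, Fkbp5 by 0.70 ± 0.30 and Tsc22d3 by 0.69 ± 0.25 (adjusted p = 0.989 each by limma), each with 5 of 6 exercised libraries above the sham mean. Zbtb16 differed by 0.06 ± 0.24 and Sgk1 by 0.19 ± 0.25. In none of the 10 genes were the groups apart, against 0.0739% of all genes.

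Without ZT3_RUN_1 and ZT3_SED_1, 3 genes passed at ZT3, where 0.117% of all genes did. These 2 libraries were set aside on the 10 genes' own values, so the count and the values without them support nothing by themselves. Tsc22d3 differed by 1.15 (adjusted p = 0.000315), Ddit4 by 2.05 (adjusted p = 0.0137) and Fkbp5 by 1.20 (adjusted p = 0.0227) in the remaining 5 libraries a group. In Tsc22d3 and Ddit4 the 5 remaining exercised libraries all lay above the 5 remaining sham libraries. Leaving out any 1 library, these 2 included, gave 0 calls among the 10 genes at ZT3.

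Whether exercise differed between the times was tested by the interaction, the exercise difference at ZT15 minus that at ZT3. None of the 10 genes passed by limma, and 0% of all genes did, with 0 of the 10 and 7.84% of all genes at an unadjusted p under 0.05. EdgeR and DESeq2 called 0 of the 10, where they called 0 and 239 of all 16233 genes. The interaction was 1.19 ± 0.68 for Mt2, 0.79 ± 0.46 for Mt1, 0.58 ± 0.35 for Sgk1 and 0.50 ± 0.34 for Zbtb16, and it lay between -0.21 and 0.06 for the other 6. Averaged over both times, 0 of the 10 passed, where 0.142% of all genes did, and 8 had an unadjusted p under 0.05, as did 7.74% of all genes. Of these 8, 7 were induced genes with a difference above 0. The other was the receptor gene Nr3c1, lower in exercised mice at -0.15 ± 0.06 (unadjusted p = 0.0256 by limma). EdgeR called 0 and DESeq2 3 (Ddit4, Mt1 and Mt2), where DESeq2 called 1.19% of all genes. Ddit4 came nearest, at 1.38 ± 0.31 (adjusted p = 0.0657), with 6 of 6 exercised libraries above the sham mean at ZT15 and 5 of 6 at ZT3. With neighbouring title numbers as a block, that average of Ddit4 passed (adjusted p = 0.0457), where 42 of all 16233 genes did. Without ZT3_RUN_1 and ZT3_SED_1, 6 genes passed on average (Tsc22d3, Ddit4, Fkbp5, Mt2, Mt1 and Fam107a; adjusted p of 0.000140 to 0.0439), where 1.64% of all genes did. That pair was chosen on the 10 genes' own values, so this count supports nothing by itself.

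**Figure D2:**
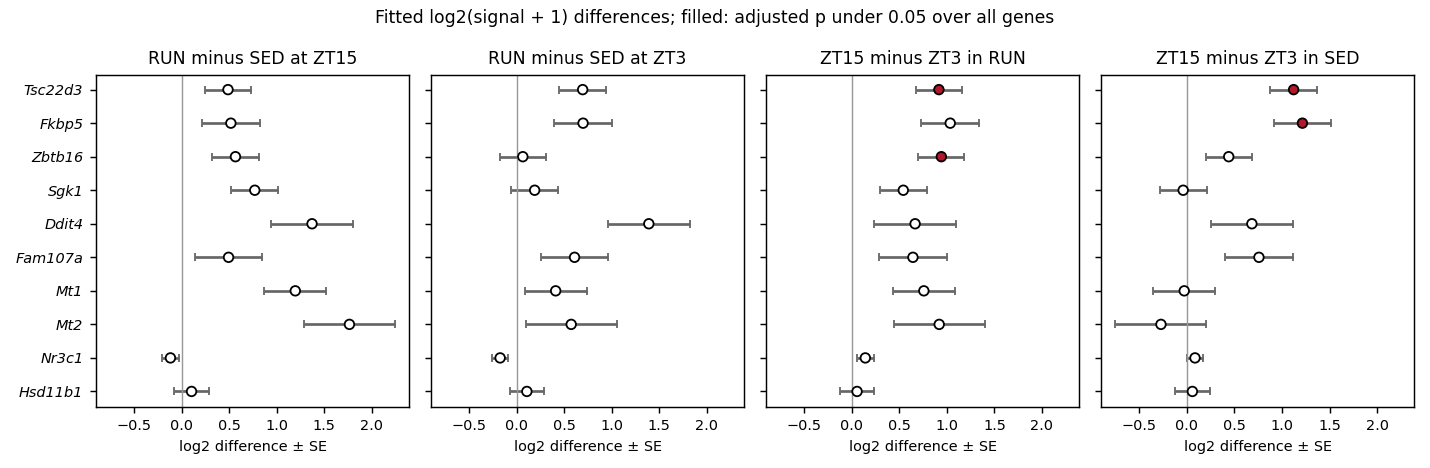
Fitted differences on the log2(signal + 1) scale (x axis) with their standard errors for each of the 10 genes (y axis) in 4 comparisons; filled points passed an adjusted p of 0.05. Exercise differences at ZT15 reach 1.76 for Mt2 with no filled point, and filled points stand for Tsc22d3 and Zbtb16 between the times in exercised mice and for Tsc22d3 and Fkbp5 between the times in sham mice.

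The times of day were compared within the exercised and within the sham mice. These comparisons share libraries with those of exercise, so their values are given side by side and not as separate support. In exercised mice all 10 genes had a difference above 0 (ZT15 minus ZT3), and 2 passed by limma, where 4.19% of all genes did: Zbtb16 by 0.94 ± 0.24 (adjusted p = 0.0304) and Tsc22d3 by 0.92 ± 0.25 (adjusted p = 0.0355). Fkbp5 differed by 1.03 ± 0.30 (adjusted p = 0.0531). Tsc22d3 did not overlap between ZT15_RUN and ZT3_RUN, as in 2.27% of all genes in either direction. Both calls depend on single libraries: Tsc22d3 lost its call without ZT15_RUN_1, ZT15_RUN_4, ZT15_RUN_5, ZT15_RUN_6, ZT3_RUN_1 or ZT3_RUN_6 (adjusted p of 0.0522 to 0.0817), and Zbtb16 without ZT15_RUN_4, ZT15_RUN_5, ZT15_RUN_6, ZT3_RUN_1, ZT3_RUN_2, ZT3_RUN_4 or ZT3_RUN_6 (adjusted p of 0.0548 to 0.0823). Without ZT3_RUN_1 and ZT3_SED_1, a pair chosen on these genes' own values, Tsc22d3 (0.67, adjusted p = 0.00628) and Fkbp5 (0.79, adjusted p = 0.0405) passed and Zbtb16 did not (0.89, adjusted p = 0.0504), where 2.67% of all genes passed. Without the 3 libraries high in Cd79a, Zbtb16 differed by 0.80 (adjusted p = 0.0628).

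In sham mice 2 of the 10 genes passed between the times, where 1.18% of all genes did. Fkbp5 was higher at ZT15 by 1.21 ± 0.30 (adjusted p = 0.0479) and Tsc22d3 by 1.12 ± 0.25 (adjusted p = 0.0195), with 6 of 6 ZT15 libraries above the ZT3 mean for both. None of the 10 was apart between the times, against 2.51% of all genes. Tsc22d3 overlapped through ZT3_SED_1, since the 5 other ZT3_SED libraries reached only 189 and the lowest ZT15_SED library held 318. Fam107a differed by 0.76 ± 0.35, Ddit4 by 0.68 ± 0.43 and Zbtb16 by 0.44 ± 0.24, without passing. Sgk1, Mt1 and Mt2 were near or below 0, at -0.04 ± 0.25, -0.03 ± 0.32 and -0.27 ± 0.48, and Nr3c1 and Hsd11b1 were at 0.09 ± 0.09 and 0.06 ± 0.18. Fkbp5 lost its call when any 1 of 18 libraries was left out (adjusted p of 0.0504 to 0.117), among them all 6 of ZT15_SED and ZT3_SED_2 to ZT3_SED_6. It was also not called without the 3 libraries high in Cd79a (1.20, adjusted p = 0.0998), of which 2 are of ZT15_SED, or by edgeR (adjusted p = 0.0995), where 1.57% and 1.18% of all genes were. Tsc22d3 lost its call without ZT15_SED_1, ZT15_SED_3, ZT3_SED_2 or ZT3_SED_5 (adjusted p of 0.0545 to 0.0613), and without ZT3_RUN_1 and ZT3_SED_1 it differed by 1.34 (adjusted p = 3.98e-06) and Fkbp5 by 1.48 (adjusted p = 0.000448), the 2 genes of the 10 then called, where 0.979% of all genes were. That pair was chosen on these genes' own values, so the smaller p-values support nothing by themselves.

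**Figure D3:**
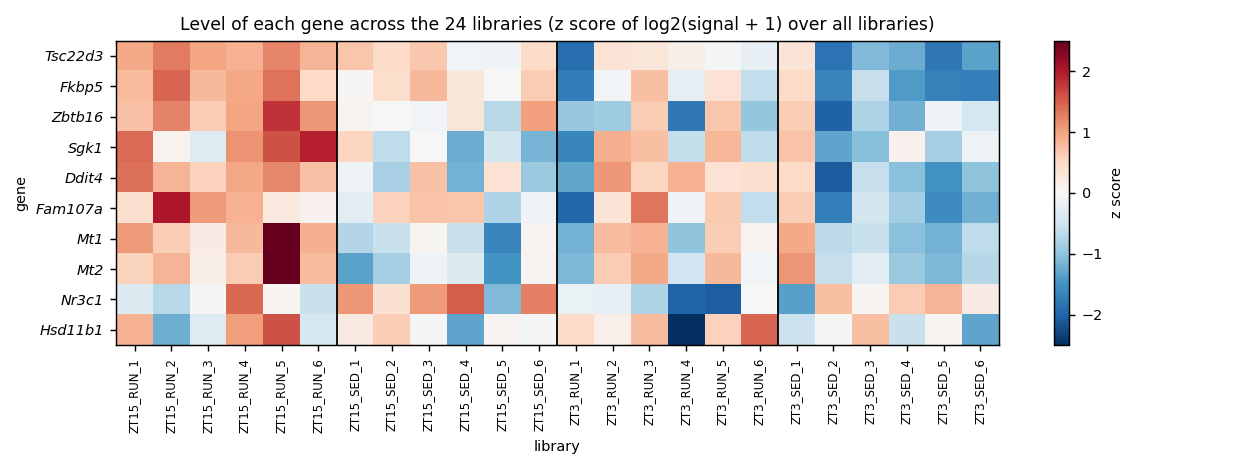
Level of each of the 10 genes (y axis) in each of the 24 libraries (x axis) as a z score of log2(signal + 1) over all libraries; red is above and blue below the gene's mean, and black lines part the groups. ZT3_RUN_1 is blue and ZT3_SED_1 red for Tsc22d3 (127 and 390), against their groups, and ZT15_RUN_5 is darkest for Mt1 and Mt2 (358 and 125).

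Within the groups the induced genes varied together. Residuals from the 4 group means were correlated for all 45 pairs of the 10 genes over 24 libraries, with permutation within groups. By Pearson's r 17 pairs passed an adjusted p of 0.05, all of them positive and all among the 28 pairs of induced genes. By Spearman's rho 14 did. How often pairs of other genes pass was not computed. The counts are thus not shown to be particular to these 10 genes. The closest pair was Mt1 and Mt2 (r = 0.96, rho = 0.90, permutation p = 1e-05 for both, adjusted 0.00015 and 0.0003, the raw p being the smallest that 100000 resamples can give; r = 0.92 without the 2 farthest libraries). Next came Fkbp5 and Fam107a (r = 0.88, rho = 0.84, permutation p = 1e-05 and 2e-05, adjusted 0.00015 and 0.0003; r = 0.80 without the 2 farthest), and Tsc22d3 and Fkbp5 (r = 0.87, rho = 0.79, permutation p = 3e-05 and 6e-05, adjusted 0.00034 and 0.00068; r = 0.70). Tsc22d3 and Ddit4 had r = 0.79 and rho = 0.64 (permutation p = 0.00126 and 0.0033, adjusted 0.0063 and 0.0165; r = 0.59).

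The receptor and the enzyme did not join these pairs. Nr3c1 had a Pearson r below 0 with all 8 induced genes, at -0.012 with Mt1 (rho = 0.019), and lay farthest from 0 with Ddit4 (r = -0.47, rho = -0.42, permutation p = 0.0362 and 0.0509, adjusted 0.0776 and 0.117; r = -0.31 without the 2 farthest), and none of its pairs passed. Without ZT3_RUN_1 and ZT3_SED_1 r with Nr3c1 was above 0 for 5 of the 8 (Mt1 0.35, Mt2 0.20, Zbtb16 0.11, Fam107a 0.053 and Tsc22d3 0.026) and was -0.26 for Ddit4. Without the 3 libraries high in Cd79a r with Nr3c1 was below 0 for all 8, from -0.57 with Fkbp5 (adjusted permutation p = 0.0511) to -0.38 with Sgk1. In that setting 19 pairs passed by Pearson's r, all among the induced genes, and 10 by Spearman's rho. The relation among the induced genes was weaker without ZT3_RUN_1 and ZT3_SED_1. Both libraries were chosen on these genes' own values. A lower r without them follows in part from that choice and supports nothing by itself. Without them the median r of the 28 induced pairs was 0.35, against 0.60 with them, and 6 pairs passed. These were Mt1 with Mt2 (r = 0.93), Fkbp5 with Fam107a (0.76), Fkbp5 with Mt2 (0.64), Zbtb16 with Mt1 (0.59), Zbtb16 with Mt2 (0.59) and Tsc22d3 with Fkbp5 (0.59), with adjusted permutation p of 0.00045 to 0.0428.

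**Figure D4:**
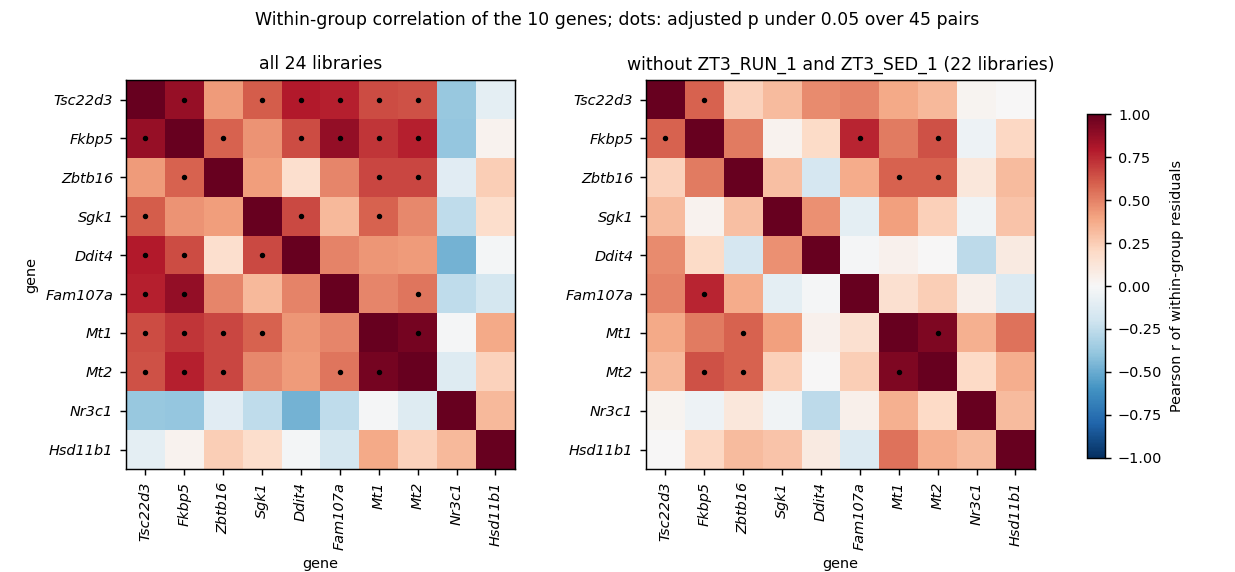
Pearson correlation of the residuals from the group means for each pair of the 10 genes (both axes), with all 24 libraries on the left and without ZT3_RUN_1 and ZT3_SED_1 on the right; dots mark pairs with an adjusted permutation p under 0.05. There are 17 such pairs on the left and 6 on the right, and Mt1 with Mt2 stays at 0.96 and 0.93.

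The genes differed in how much they varied within groups. The within-group SD on the log2 scale was 0.88 for Mt2 and 0.79 for Ddit4, above those of 96.3% and 95.6% of all genes. It was 0.14 for Nr3c1, above that of 18.1% of all genes, and 0.33 for Hsd11b1, above that of 74.1%. For Tsc22d3 it was above 85.7% of genes with all libraries and above 43.1% without ZT3_RUN_1 and ZT3_SED_1, a pair chosen on these genes' own values.

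Over the 24 libraries the genes most like Tsc22d3, beside the 10, were Wee1 (r = 0.88, rho = 0.88), a kinase that holds back cell division, Trp53inp1 (r = 0.86, rho = 0.74), Map3k6 (r = 0.84, rho = 0.86), Dcun1d3 (r = 0.82, rho = 0.84) and the clock gene Per1 (r = 0.82, rho = 0.77). Those most like Mt2 were Fosl2, an AP-1 factor (r = 0.89, rho = 0.92), Vmp1, an autophagy protein (r = 0.89, rho = 0.85), Cyth3 (r = 0.89, rho = 0.89), Sesn2, an inhibitor of mTORC1 (r = 0.89, rho = 0.85), and Appbp2 (r = 0.89, rho = 0.93). Those most like Nr3c1 were Dipk2a (r = 0.85, rho = 0.82), Slc35a1 (r = 0.83, rho = 0.77), Slc16a7 (r = 0.79, rho = 0.72), Plaat3 (r = 0.78, rho = 0.74) and Cryzl1 (r = 0.78, rho = 0.78). Only genes with a named symbol (no Gm, Rik or similar name) and a mean level above that of the median gene were ranked. These likenesses describe the same libraries, whose groups they share.

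Other genes known to respond to glucocorticoids were counted beside the 8. This list and those that follow were chosen with earlier results of these data known, so their counts are not separate support. Of 22 such genes, 20 were above 0 between exercised and sham mice at ZT15, where 50.7% of all genes were. By limma 3 passed, where 0.641% of all genes did: Dusp1, a phosphatase that restrains MAP kinases, by 1.31 ± 0.24 (adjusted p = 0.0169), Errfi1, which restrains EGF receptor signalling, by 1.98 ± 0.38 (adjusted p = 0.0170), and Irs2, an insulin receptor substrate, by 1.53 ± 0.28 (adjusted p = 0.0169). Dusp1 averaged 100.3 in ZT15_RUN and 39.5 in ZT15_SED, Errfi1 294.5 in ZT15_RUN and 71.1 in ZT15_SED, and Irs2 220.4 in ZT15_RUN and 70.2 in ZT15_SED, with no overlap between those groups in any of the 3. EdgeR called 4 of the 22, with Pdk4 added, where it called 121 of all 16233 genes. DESeq2 called 6, where it called 3.33% of all genes. Without the 3 libraries high in Cd79a, limma called 1, Dusp1, where 0.136% of all genes were called, and without ZT3_RUN_1 and ZT3_SED_1 it called 5, where 1.23% of all genes were called. Between the times in sham mice Dusp1, Errfi1 and Irs2 were below 0 (Dusp1 -0.84 ± 0.24, Errfi1 -1.06 ± 0.38, Irs2 -0.52 ± 0.28), where Tsc22d3 and Fkbp5 were above 0. None of the 3 passed by limma. DESeq2 called Dusp1 and Errfi1, where it called 544 of all 16233 genes. At ZT3 none of the 22 passed between exercised and sham mice by limma, edgeR or DESeq2, each of which called 0 of all genes. An unadjusted limma p under 0.05 was reached by 3 of the 22, as by 2.27% of all genes. Averaged over both times Dusp1 (0.85 ± 0.17, adjusted p = 0.0434) and Errfi1 (1.31 ± 0.27, adjusted p = 0.0466) passed, where 0.142% of all genes did. Without the 3 libraries high in Cd79a 0 of the 22 passed on average, where 0.00616% of all genes did, and without ZT3_RUN_1 and ZT3_SED_1 8 did, where 1.64% of all genes did. Between the times in exercised mice 3 of the 22 passed, where 4.19% of all genes did. These were Pdk4, which turns fuel use from glucose to fat (1.68 ± 0.34, adjusted p = 0.00606), and, named after their values were seen, the phosphatidate phosphatase Lpin1 (0.82 ± 0.20, adjusted p = 0.0217) and the glutamine synthetase Glul (0.83 ± 0.20, adjusted p = 0.0219).

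Of 12 chaperones and cochaperones of the receptor, 12 were above 0 between exercised and sham mice at ZT3 and 11 at ZT15, where 51.8% and 50.7% of all genes were. None passed at a single time, where 0% and 0.641% of all genes did. At ZT3 1 and at ZT15 3 had an unadjusted p under 0.05, as did 2.27% and 12.7% of all genes. EdgeR called 0 at either time, and DESeq2 called Ppid at ZT15, where it called 3.33% of all genes. Ppid, the cyclophilin that binds HSP90, passed on average over both times (0.24 ± 0.05, adjusted p = 0.0421), where 0.142% of all genes did, and was not called without the 3 libraries high in Cd79a. Hspa8, a constitutive HSP70, was higher at ZT15 by 0.46 ± 0.11 in sham mice (adjusted p = 0.0455) and by 0.45 ± 0.11 in exercised mice (adjusted p = 0.0241), where 1.18% and 4.19% of all genes passed. Neither call of Hspa8 held without ZT3_RUN_1 and ZT3_SED_1. Of 11 receptor coregulators, 2 passed, both between the times in exercised mice, where 4.19% of all genes did: Nrip1, a corepressor known in fat as RIP140 (0.85 ± 0.16, adjusted p = 0.00317), and the coactivator Ncoa1 (0.36 ± 0.06, adjusted p = 0.00223). Of 10 genes around mTORC1, on which Ddit4 acts, 1 passed by limma, Mtor, between the times in exercised mice (0.36 ± 0.10, adjusted p = 0.0439), where 4.19% of all genes did, and it was not called without ZT3_RUN_1 and ZT3_SED_1 or without the 3 libraries high in Cd79a. Sesn2 was called between exercised and sham mice at ZT15 by edgeR, by DESeq2 and by limma without ZT3_RUN_1 and ZT3_SED_1, where these called 121, 541 and 199 of all 16233 genes. On average over both times it was called by DESeq2 and by limma without that pair, where these called 193 and 266 of all genes. DESeq2 also called Sesn1, lower at ZT15 in exercised mice, where it called 1575 of all 16233 genes.

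In 3 further groups no gene passed in any comparison by limma. EdgeR called Hsd11b2 and Abcb1b between the times in exercised mice, where it called 744 of all genes. DESeq2 added H6pd to these, where it called 1575 of all genes. It also called Slc39a14 between exercised and sham mice at ZT15, where it called 3.33%. Hsd11b2 was very low, with means of 1.68 in ZT15_RUN and 0.96 in ZT3_RUN. Abcb1b averaged 19.5 in ZT15_RUN and 16.1 in ZT3_RUN. Of 10 genes of corticosteroid metabolism, transport and other steroid receptors, H6pd, which supplies the cofactor of the Hsd11b1 enzyme, averaged 525 in ZT15_RUN, 446 in ZT15_SED, 339 in ZT3_RUN and 370 in ZT3_SED (exercise difference 0.24 ± 0.20 at ZT15 and -0.14 ± 0.20 at ZT3). Of 5 other genes of metallothionein and zinc control, the zinc exporter gene Slc30a1 differed by 0.18 ± 0.14 at ZT15 and -0.03 ± 0.14 at ZT3, and the zinc importer gene Slc39a10 by -0.05 ± 0.09 at ZT15 and -0.08 ± 0.09 at ZT3. Of 5 genes of the Sgk1 pathway, its activating kinase Pdpk1 differed by 0.12 ± 0.05 at ZT15 and -0.03 ± 0.05 at ZT3, and Rictor, a subunit of mTORC2, by 0.05 ± 0.12 at ZT15 and 0.14 ± 0.12 at ZT3.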

How the data were processed

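RNA of inguinal fat was sequenced in 24 libraries, 6 in each of 4 groups taken from the labels. Per the submitters' processing notes, the tools named include limma 3.48.3, Subread 1.6.2, STAR and featureCounts, with no role or order. Genome build, annotation, strand setting and gene filter: not given in the sources used here, so antisense, overlapping and near-identical genes cannot be told apart. The authors deposited a normalized signal per gene and library: 100% of values were whole reads times a library step within a tolerance of 0.01, and the signal equalled reads per M (mega) reads on a TMM-scaled library size to within 5.2e-15. No library was counted as a duplicate: chi-square over genes, per degree of freedom, was at least 23.4 in each of 60 pairs within groups.

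Values were analysed as log2(signal + 1), which understates changes of low genes, by limma 3.58.1 in R 4.3.3 (lmFit, eBayes with trend) in 1 model of 4 group means over all 16233 genes, with Benjamini-Hochberg adjustment over them and a threshold of 0.05. Every adjusted p of a gene difference is from this limma fit unless another tool is named. Recovered reads entered edgeR 4.0.16 and DESeq2 1.42.0 as alternatives. Other alternatives were pseudocount 0.1, no lowest 25% of genes, quantile and median scaling, no trend, robust moderation, sample weights, only the groups compared, runs of 8 title numbers, neighbouring title numbers as a block, marker scores, threshold 0.1 and left-out libraries. Correlations used 100000 permutations within groups, two-sided, and marker tests the 924 exact splits. The fit was tested on simulated reads. The 10 genes, the gene and marker lists and the naming rule (up to 4 genes of a list that passed, or else its 2 of highest mean, and the 5 genes most like Tsc22d3, Mt2 and Nr3c1 among those with a named symbol and a level above the median gene) were chosen with earlier results of these data known. Of the genes this rule names, 1 is not reported here.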

Additional observations from a re-analysis of the deposited data

Results flagged for a closer look

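Of 40 sets of 6 libraries (10 genes in 4 groups), 10 held a library whose gap to its nearest neighbour, as a share of the group's range on the log2(signal + 1) scale, exceeded Dixon's 95% critical value. Chance alone marks about 1 group in 20. In ZT3_RUN_1 these were Tsc22d3 at 127 (share 0.756) and Ddit4 at 18.2 (0.698), both lowest of their group. In ZT3_SED_1 they were Tsc22d3 at 390 (0.658) and Mt1 at 142 (0.706), both highest, and Nr3c1 at 286 (0.636), lowest. In ZT15_RUN_5 they were Mt2 at 125 (0.744) and Mt1 at 358 (0.660), both highest. Nr3c1 was highest in ZT15_RUN_4 at 395 (0.648). Hsd11b1 was lowest in ZT15_SED_4 at 222 (0.663) and in ZT3_RUN_4 at 157 (0.695), and ZT3_RUN_4 also held Cd79a at 99.2. The part of depth, cell types or sampling in these values was not tested. No exercise difference of the 10 genes differed between the times by limma's interaction test.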

How the results depend on the processing

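Of 940 values of single genes recomputed under settings other than leaving out 1 library, 873 kept their direction and their side of the threshold, 14 lost a call, 30 gained one and 23 changed sign. Of 1440 with 1 library left out, 1348 kept both, 35 lost a call, 12 gained one and 45 changed sign. Every sign change was of a value without a call. Counts of the 10 genes called moved as follows, with the number of all genes called in the same setting in parentheses. In the main fit all genes called numbered 0 for exercise at ZT3, 104 at ZT15 and 23 on average. Between the times they numbered 191 in sham mice and 680 in exercised mice. Without ZT3_RUN_1 and ZT3_SED_1, a pair chosen on these genes' own values, the counts of the 10 genes were 3 (19) for exercise at ZT3, 4 (199) at ZT15 and 6 (266) on average. In that setting 6 pairs were correlated in place of 17. At a threshold of 0.1 the counts of the 10 genes were 2 (300) at ZT15 and 1 (94) on average. With DESeq2 they were 3 (541) at ZT15 and 3 (193) on average. On average 1 gene, Ddit4, was called with sample weights, with neighbouring title numbers as a replicate block (their consensus correlation was 0.054) and with marker scores in the model. The titles do not say that neighbouring numbers share anything, and the block changed no other call of these genes. Between the times in sham mice 1 was called, in place of 2, with quantile scaling (174), median centring (142), no trend (187), only the groups compared (276), edgeR (192), or without the 3 libraries high in Cd79a (255). In exercised mice 0 were called with quantile scaling (426) or only the groups compared (109), and 1 with sample weights (817), edgeR (744) or without those 3 libraries (666). In the same mice 3 were called, with Fkbp5 added, without the lowest 25% of genes (716), with median centring (715), at a threshold of 0.1 (1287) or with DESeq2 (1575). With 1 library left out, the counts ranged over 0 to 2 for exercise at ZT15 (16 to 293) and 0 to 4 on average (0 to 165). Between the times they ranged over 0 to 2 in sham mice (130 to 388) and 0 to 3 in exercised mice (330 to 1004). Restricting the fit to the groups compared leaves fewer libraries; the cause of the other changes was not tested.

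The values that changed sign were as follows. For Hsd11b1 they were -0.061 (quantile) and -0.051 (marker scores) for exercise at ZT15, 0.068 (median centring) and 0.039 (without ZT3_RUN_1 and ZT3_SED_1) for the interaction, and -0.11 (quantile), -0.037 (weights), -0.032 (marker scores) and -0.13 (without Cd79a-high libraries) for time in exercised mice. The interaction of Ddit4 was 0.052 (median centring), 0.33 (weights), 0.44 (marker scores) and 0.57 (without Cd79a-high libraries). That of Nr3c1 was -0.13 (quantile), -0.054 (marker scores) and -0.040 (without Cd79a-high libraries), and its time difference in exercised mice was -0.054 (quantile). Between the times in sham mice Sgk1 was at 0.049 (marker scores) and 0.080 (without ZT3_RUN_1 and ZT3_SED_1). Mt1 was at 0.089 (weights), 0.19 (marker scores), 0.056 (without Cd79a-high libraries) and 0.19 (without ZT3_RUN_1 and ZT3_SED_1), and Mt2 at 0.054 (without that pair). With 1 library left out, some values of the following genes also changed sign. The ranges given hold all left-out values, those that kept their sign included. They were -0.10 to 0.21 for Zbtb16 (exercise at ZT3), -0.37 to 0.22 for Ddit4, -0.40 to 0.10 for Fam107a, -0.0028 to 0.11 for Nr3c1 and -0.19 to 0.090 for Hsd11b1 (interaction). The ranges were -0.15 to 0.080 for Sgk1, -0.12 to 0.19 for Mt1, -0.43 to 0.054 for Mt2 and -0.0089 to 0.14 for Hsd11b1 (time in sham mice), and -0.13 to 0.15 for Hsd11b1 (time in exercised mice). The fewest reads behind a value of the 10 genes were 65 for Fam107a (ZT3_RUN_1) and 111 for Mt2 (ZT15_SED_5), and a pseudocount of 0.1 changed no call.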
